A study of Homo sapiens with 6 samples.

Results

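Fibroblast growth factors (FGFs) and their receptors were followed in U251 cells, a glioma line of human origin in long use, which grew on nanofibers electrospun from the polyester poly-caprolactone. The genes were chosen by name: FGF1, FGF2, FGF5, FGFR1, FGFR3, FGFRL1 and FRS2. Their probe sets were those that the platform annotation maps to 1 gene symbol. This gave 19 probe sets of 6 genes, among 41091 probe sets and 19775 genes with such a symbol. No probe set was matched to FRS2, so it was not analysed here. In the aligned group (3 cultures, 1 array each) the fibers were highly aligned. In the random group (3 cultures, 1 array each) they were randomly oriented. All 6 cultures shared the cell line, the polymer, DMEM with 10% serum and a growth time of 24 h on coated 60 mm dishes. Serum is itself a source of growth factors, and cells on a flat surface are not in the comparison. The study asked which genes change with the orientation of the substrate. The genes were proposed with values of this contrast known, and FGF5 was noted for a difference of even size in the 3 pairs of arrays of equal number. The contrast is therefore described for these genes and not tested.

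Most FGFs are secreted proteins that bind heparan sulfate on the cell surface and bring tyrosine kinase receptors together. The activated receptor phosphorylates the adaptor FRS2, which recruits GRB2, SOS and GAB1 and starts the Ras and MAP kinase cascade. The cascade induces ETS factors such as ETV4 and ETV5, and also its own inhibitors, the Sprouty, SPRED and DUSP proteins. FGF1 and FGF2 lack a classical signal peptide and leave the cell by unconventional routes, while FGF5 is secreted by the classical route and is known as an inhibitor of hair growth. FGFR1 and FGFR3 are receptor kinases. FGFRL1 resembles them outside the cell but lacks the kinase domain. In the brain FGF2 acts on neural progenitors, FGFR3 is typical of astrocytes and FGFR1 is widely expressed in glioma.

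The promoters of FGF5, FGFR3 and FGFRL1 are shown because these were the genes for which every probe set differed in 1 direction and at least 1 set separated the groups. For FGFR3 the separating set was a dim one, 204380_s_at, below the filter described below, and the groups overlapped in its brighter set. Each sequence is the 250 bases upstream of the start in RefSeq (GRCh38.p14, plus strand), at chr4:80266338-80266587 for FGF5, chr4:1793043-1793292 for FGFR3 and chr4:1012214-1012463 for FGFRL1. Capitals mark GC boxes (GGGCGG, searched on both strands) and an E-box (CACGTG, its own reverse complement).
FGF5: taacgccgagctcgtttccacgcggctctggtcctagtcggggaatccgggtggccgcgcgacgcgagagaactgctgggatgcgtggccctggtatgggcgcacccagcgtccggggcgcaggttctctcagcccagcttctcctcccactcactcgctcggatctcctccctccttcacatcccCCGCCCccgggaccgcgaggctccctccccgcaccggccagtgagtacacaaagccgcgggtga
FGFR3: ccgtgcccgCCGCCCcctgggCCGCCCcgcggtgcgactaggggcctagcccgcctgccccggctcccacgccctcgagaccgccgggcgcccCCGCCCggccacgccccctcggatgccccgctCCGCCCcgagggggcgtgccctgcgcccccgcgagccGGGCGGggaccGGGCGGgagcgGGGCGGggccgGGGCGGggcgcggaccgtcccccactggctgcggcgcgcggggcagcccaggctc
FGFRL1: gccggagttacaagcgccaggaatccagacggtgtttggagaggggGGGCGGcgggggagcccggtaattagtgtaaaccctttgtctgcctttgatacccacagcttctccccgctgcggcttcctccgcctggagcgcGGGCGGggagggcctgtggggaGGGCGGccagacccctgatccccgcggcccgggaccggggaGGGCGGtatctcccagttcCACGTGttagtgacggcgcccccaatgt
The FGFR3 promoter held 8 GC boxes and was 86.8% G and C, above 99.8% of the 35116 promoters of this length in the table. FGFRL1 held 4 GC boxes and 1 E-box, with 67.6% G and C. The more upstream of the 2 starts listed for FGF5 had 1 GC box and 68.8% G and C. A GC box occurred in 42.6% of all promoters and an E-box in 6.34%. The AP-1 motif TGANTCA, the cAMP response motif TGACGTCA, the TEAD motif GGAATG, the ETS motif CCGGAAG and the TATA motif TATAAA, each searched on both strands, were not found in these windows. They occurred in 6.57%, 1.65%, 11.9%, 8.52% and 10.7% of all promoters. The windows show the letters upstream of the start and no binding was measured.

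The arrays give log2 signals after robust multi-array averaging (RMA), so a difference of 1 is a doubling of the signal. Probe sets bind with different strength, so levels are compared within a probe set and not between genes. A probe set counted as measured when its signal exceeded the array median on at least 3 arrays, which held for 14 of the 19 sets. Each of the 6 genes kept at least 1. Array medians lay between 5.63 and 5.66. The array of aligned replicate 3 stood apart from the rest, with a root mean square distance of 0.38 to the mean of the random arrays over 12381 genes. The other arrays lay at 0.09 to 0.19. The 3' minus 5' signal, a sign of RNA quality, was 0.08 to 0.16 for GAPDH and 0.09 to 0.22 for beta-actin over the 6 arrays. Of the glial and glioma markers 7 of 8 were measured, with VIM, CD44 and NES above the 98th percentile of an array at their highest. GFAP reached at most the 64.6th percentile and S100B did not pass the filter. Of the epithelial markers 0 of 4 were measured. Of the 2 blood cell markers on the array, CD3E was measured and reached the 58.3rd percentile, and PTPRC stayed below the 24th. Of the endothelial markers 3 of 4 were measured, reaching at most the 66.3rd percentile. Of the neuron markers it was also 3 of 4, at most at the 66.9th percentile. Markers of other cell types thus passed the filter at levels like that of GFAP. The log2 of the summed linear signals of the 2 blood cell markers was 6.31 to 6.37 on aligned and 6.02 to 6.31 on random fibers, and its part in the results was not tested. In this bulk RNA, fewer cells with a transcript and less transcript per cell cannot be told apart.

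FGF5 read higher on aligned fibers with each of its 3 probe sets, by 0.37 to 0.49 on the log2 scale. Its brightest set, 210310_s_at, read 6.87, 6.67 and 6.72 on the aligned arrays 1 to 3 and 6.41, 6.31 and 6.29 on the random arrays 1 to 3. Every aligned value lay above every random value, and the aligned array with the lowest value was 2, not the distant array 3. The group values were 6.75 ± 0.10 and 6.33 ± 0.06 (SD, n = 3 each), a difference of 0.42 ± 0.09 (SE) or 1.34-fold. Set 208378_x_at read 6.77, 6.71 and 6.79 against 6.50, 6.10 and 6.20, a difference of 0.49 ± 0.11 (SE). Here the aligned arrays were nearly level and the random arrays spread, with random 1 nearest to the aligned values. The suffix _x_at of this set marks probes that may also bind other transcripts. Set 210311_at, the dimmest, read 6.05, 5.92 and 6.19 against 5.84, 5.67 and 5.55, a difference of 0.37 ± 0.11 (SE). It lay close to the filter limit, with 5 of 6 arrays above their median. The groups did not overlap in 3 of 3 FGF5 sets. Over all 27621 measured probe sets 7.61% had every aligned above every random array, and nothing is read from this, since FGF5 was noted for the contrast.

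The even size noted for FGF5 held for 1 of its sets. In 210310_s_at the differences between arrays of equal number were 0.46, 0.37 and 0.43 for the numbers 1, 2 and 3. In 208378_x_at they were 0.27, 0.61 and 0.59, and in 210311_at 0.21, 0.25 and 0.64. Thus all 9 were positive, but the second set had its smallest value in pair 1 and the third set its largest in pair 3. Without aligned 3 the differences of the 3 sets were 0.44, 0.48 and 0.30. With any 1 of the 6 arrays left out, that of 210310_s_at stayed between 0.36 and 0.46.

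FGF1, the ligand that binds all FGF receptors, had 3 probe sets, of which 205117_at was measured. It read 6.25, 7.05 and 7.36 on the aligned and 6.14, 6.73 and 6.67 on the random arrays. The groups overlapped, with arrays numbered 1 lowest in each group. The values were 6.89 ± 0.57 and 6.51 ± 0.32 (SD, n = 3 each), a difference of 0.37 ± 0.27 (SE). Omission of aligned 3 gave 0.14, omission of aligned 1 gave 0.69 and omission of random 1 gave 0.19. The 2 sets below the filter differed by 0.11 and 0.58, and 1552721_a_at read 4.54 and 4.76 on aligned 2 and 3 against at most 3.90 on random fibers. Its aligned 1 value of 3.77 lay within the random range. RefSeq lists 4 starts for FGF1, and the part of the transcript each set reads is not given in the sources used here.

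FGF2, a mitogen of glia and glioma cells, differed little and in opposite directions in its 2 measured sets. Set 204421_s_at read 8.27, 8.35 and 8.65 on aligned and 8.22, 8.27 and 8.37 on random arrays, a difference of 0.14 ± 0.11 (SE). The groups overlapped, and without aligned 3 the difference was 0.02. Set 204422_s_at read 7.33, 7.52 and 7.56 against 7.52, 7.68 and 7.54, a difference of -0.11 ± 0.10 (SE). Each of these differences was close to its standard error. FGF2 overlaps NUDT6 in the RefSeq gene table, and which strand its probe sets read was not checked here.

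**Figure D1:**
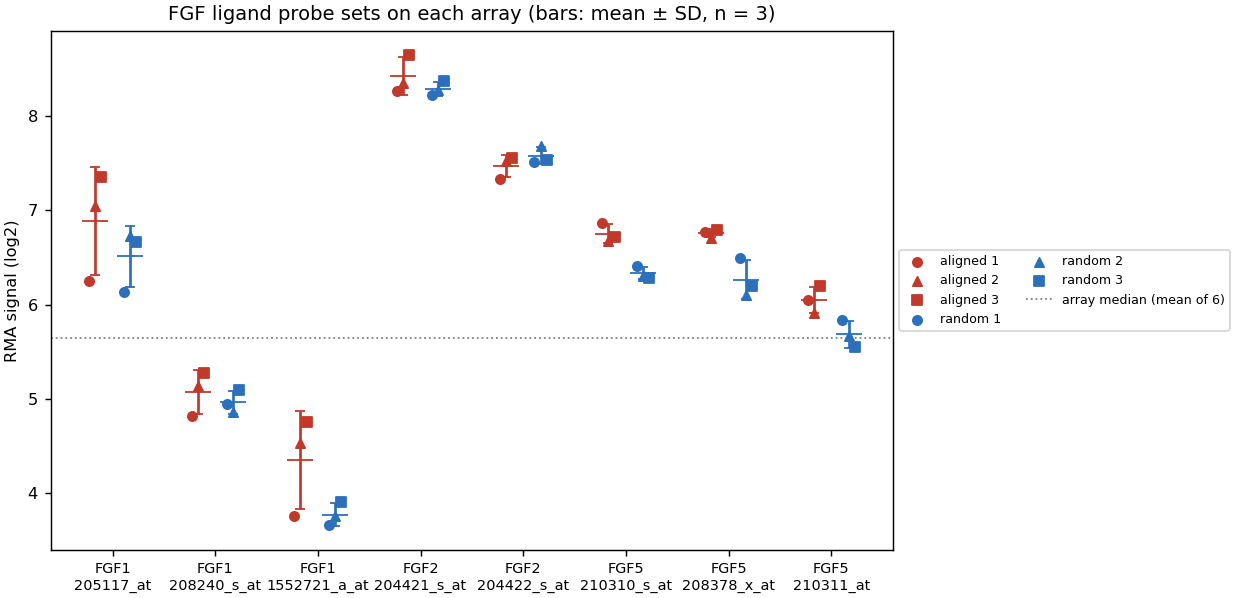
RMA signal (log2, vertical axis) of the 8 probe sets of FGF1, FGF2 and FGF5, with aligned arrays in red and random arrays in blue, a marker shape for each replicate number, bars for mean ± SD (n = 3) and a dotted line at the mean of the array medians. In the 3 FGF5 sets all red points lie above all blue points, while FGF1 and FGF2 overlap.

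FGFR1, a receptor kinase with 7 probe sets, read slightly higher on aligned fibers in 4 of its 5 measured sets, with overlapping groups in all 5. Its brightest set, 211535_s_at, read 8.22, 8.02 and 8.50 on aligned and 8.17, 7.86 and 7.82 on random arrays. Aligned 3 was the highest array, and random 1 lay above aligned 2. The difference was 0.29 ± 0.14 (SE), the mean of 0.05, 0.16 and 0.68 between arrays numbered 1, 2 and 3. Without aligned 3 it was 0.17. Sets 210973_s_at, 226705_at and 207937_x_at differed by 0.21 ± 0.11, 0.19 ± 0.14 and 0.18 ± 0.12 (SE), with aligned 3 highest in each. Set 215404_x_at went the other way, with 6.28, 6.17 and 6.17 on aligned against 6.17, 6.42 and 6.31 on random fibers, a difference of -0.09 ± 0.09 (SE). The suffix _x_at, which 207937_x_at carries as well, marks sets whose probes may also bind other transcripts. Of the 2 sets below the filter, 207822_at lay at 4.37 or more on aligned and at most 4.20 on random arrays, and 222164_at overlapped. Over all 54613 probe sets 7.78% had every aligned above every random array.

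FGFR3, the astrocyte-associated receptor, had the largest difference among the measured sets of the 6 genes. Set 204379_s_at read 6.72, 6.61 and 5.83 on aligned and 7.20, 7.27 and 6.65 on random arrays. Array 3 was the lowest of each group, and random 3 lay between aligned 1 and aligned 2, so the groups overlapped. The values were 6.39 ± 0.49 and 7.04 ± 0.34 (SD, n = 3 each), a difference of -0.65 ± 0.24 (SE), or 1.57-fold higher on random fibers. Between arrays of equal number it was -0.48, -0.66 and -0.82, each of the same sign, and without aligned 3 it was -0.37. The other set, 204380_s_at, lay between the 8.43rd and 14.7th percentile of the arrays. It read 2.95 to 3.19 on aligned and 3.21 to 3.42 on random fibers, and 6.54% of all 54613 probe sets separated the groups in this direction. At this low signal the values describe dim probes. The 7 measured glial and glioma markers also read lower on aligned fibers, with differences of -0.90 to -0.08 on the log2 scale. Over all genes tested 52.5% read higher on aligned fibers. SOX9, a glial transcription factor, differed by -0.53 ± 0.18 (SE). Its groups did not overlap, as for 9.33% of all genes in this direction. FABP7 and GFAP differed by -0.90 ± 0.44 and -0.81 ± 0.38 (SE), with overlapping groups. Between arrays numbered 1, 2 and 3 the differences were -0.28, -0.29 and -1.03 for SOX9 and -0.14, -0.59 and -1.96 for FABP7. For GFAP they were -0.85, -1.32 and -0.24. GFAP lay above the array median only on aligned 1, random 1 and random 2, the least that the filter allows. The log2 of the summed linear signals of the list was 14.79 to 15.18 on aligned and 15.16 to 15.27 on random fibers. In this sum VIM, the brightest marker, weighs most. The part of the marker shift in the FGFR3 result was not tested.

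FGFRL1, the receptor without a kinase domain, read lower on aligned fibers in both of its sets, which were measured on all arrays. Set 223321_s_at read 10.16, 10.15 and 9.79 on aligned and 10.30, 10.47 and 10.51 on random arrays. Every aligned value lay below every random value, with the smallest gap between aligned 1 and random 1. The difference was -0.39 ± 0.12 (SE), or 1.31-fold higher on random fibers. Over all measured probe sets 8.86% had every aligned below every random array. Set 223648_s_at read 7.79, 7.53 and 7.07 against 7.85, 7.66 and 8.13, a difference of -0.41 ± 0.19 (SE). Here aligned 1 lay above random 2, and the differences between arrays numbered 1, 2 and 3 were -0.06, -0.13 and -1.06. Without aligned 3 the differences of the 2 sets were -0.27 and -0.22.

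**Figure D2:**
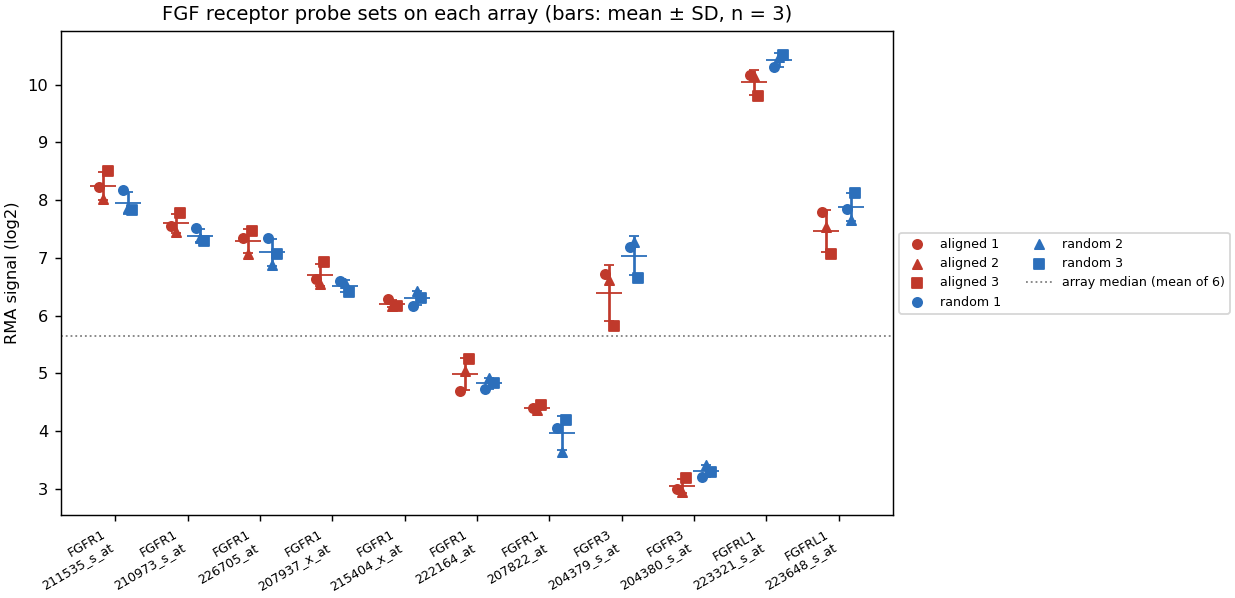
RMA signal (log2, vertical axis) of the 11 probe sets of FGFR1, FGFR3 and FGFRL1, with aligned arrays in red and random arrays in blue, a marker shape for each replicate number, bars for mean ± SD (n = 3) and a dotted line at the mean of the array medians. The red points of FGFR3 and FGFRL1 lie lower as a group, and those of the FGFR1 sets above the line overlap the blue points.

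Across the 19 probe sets 13 read higher and 6 lower on aligned fibers. Among the 14 measured sets it was 9 and 5. With the brightest measured set for each gene, the ligands FGF1, FGF2 and FGF5 and the receptor FGFR1 were higher, and FGFR3 and FGFRL1 lower. Over all genes tested 52.5% were higher. The median absolute difference of the 6 genes was 0.38, against 0.10 over all 12381 genes tested. The genes were proposed with these values known, so the comparison describes the choice. In 5 of the 6 the largest difference between arrays of equal number was the one between the arrays numbered 3, where aligned 3 enters. In FGF5 it was the one between the arrays numbered 1. Profiles of FGF5 and FGFR1 were the nearest among the 6 genes, with a root mean square difference of 0.17 after each gene's mean was subtracted. FGF1 and FGFR3 were the farthest apart at 0.83.

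**Figure D3:**
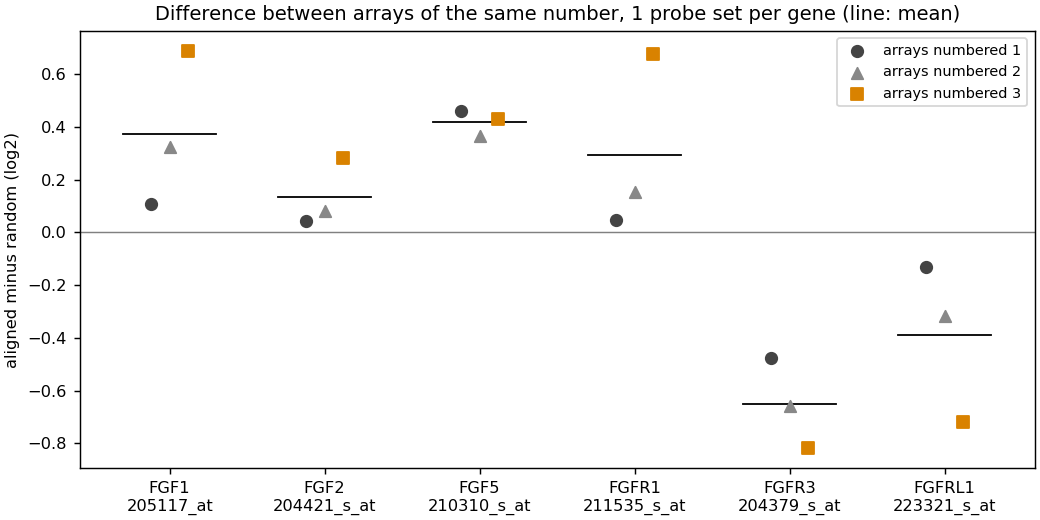
Difference between the aligned and random array of each number (log2, vertical axis) for the brightest measured probe set of each gene, with a marker for each number and a line at the mean. The 3 points of FGF5 lie together between 0.37 and 0.46, while those of FGF1, FGFR1 and FGFRL1 spread widely with number 3 outermost.

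The genes with profiles nearest to FGF5 over the 6 arrays, out of 12380 others, were P4HA3, TSPAN5, TXNRD1, CRISPLD2 and TRIM67. Their root mean square differences from it were 0.07 to 0.09. TXNRD1, a thioredoxin reductase, read 12.24, 12.07 and 12.22 on aligned and 11.96, 11.61 and 11.75 on random arrays. As in FGF5, aligned 2 was its lowest aligned array and random 1 its highest random one, which follows from the choice by profile. Nearest to FGF2 were SH3GLB2, ILKAP, OCRL, PSMG3 and UQCC6, at 0.02 to 0.03. Nearest to FGFR1 were DUSP2, FBLL1, CCDC71L, SLC66A3 and NIBAN1, at 0.04 to 0.05. DUSP2, a phosphatase of MAP kinases, read 5.75 and 5.58 on aligned 1 and 2, 5.72, 5.45 and 5.45 on random arrays, and highest on aligned 3. The high value of aligned 3 and the small gap between the arrays numbered 1, as in FGFR1, follow from the choice by profile. DUSP2 lay above the array median only on aligned 1, aligned 3 and random 1, the least that the filter allows.

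The rest of the pathway was compared with limma over all 12381 genes. No gene passed a Benjamini-Hochberg adjusted p under 0.05 (0% of genes tested), so 0 of the 72 measured pathway genes passed in either direction. With an unadjusted p under 0.05 limma gave 1303 genes or 10.5% of those tested, made up of 4.72% higher and 5.81% lower on aligned fibers. Among the 72 it gave 13, with 10 higher and 3 lower, a share of 18.1%. The count of 13 became 8 without random 3, where 5.04% of all genes reached that p instead of 10.5%. The median difference was 0.01 for the 72 and 0.01 for all genes. Weights per array changed the first count: with them 12 of the 72 and 2101 of all genes passed the adjusted threshold, but their estimation had not converged.

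Of 19 other genes of the FGF family, listed here as ligands, 8 were measured, and 0 reached an unadjusted p under 0.05. FGF11, an intracellular member of the family, differed by -0.18 ± 0.09, the metabolic hormone FGF21 by 0.17 ± 0.09 and FGF4 by 0.22 ± 0.12 (SE). The ligands FGF7, FGF8, FGF9 and FGF10 were below the filter. Among the other receptors and co-receptors 5 of 9 were measured. The receptor kinases FGFR2 and FGFR4 differed by 0.03 ± 0.10 and 0.04 ± 0.07 (SE), and were named after their values were seen. FLRT1, an adhesion protein that binds FGF receptors, read 5.96, 5.73 and 6.02 on aligned and 5.61, 5.64 and 5.58 on random arrays, a difference of 0.29 ± 0.09 (SE, limma adjusted p = 0.463). Its values lay near the array median, above it on every aligned array and below it on every random array. FLRT1 thus passed the filter through the aligned group alone, with the fewest arrays that the filter allows. The groups did not overlap, but for such a gene the filter and the separation of the groups are not independent. The same limit applies to its unadjusted p under 0.05 in limma. The adhesion molecules NCAM1 and CDH2 differed by -0.09 ± 0.10 and -0.08 ± 0.11 (SE).

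Of 9 genes for binding and export of FGFs 4 were measured. SYT1, the synaptotagmin that takes part in FGF1 release, read 7.55, 7.86 and 8.06 on aligned and 7.45, 7.19 and 7.16 on random arrays. The groups did not overlap, as for 8.71% of all genes in this direction, and aligned 1 and random 1 were close. The difference was 0.56 ± 0.14 (SE, limma adjusted p = 0.463) and 0.44 without aligned 3. S100A13, another protein of FGF1 release, differed by -0.02 ± 0.09, and the carrier protein FGFBP3 by -0.07 ± 0.14 (SE). Heparan sulfate proteoglycans and their enzymes were measured in 19 of 22 genes, with 6 higher, 13 lower and 0 at an unadjusted p under 0.05. With the replicate number as a block in limma 2 reached that p, SDC2 and GPC4, both lower on aligned fibers, beside 13.6% of all genes. The proteoglycan SDC4 differed by 0.26 ± 0.13, the sulfotransferase HS2ST1 by -0.26 ± 0.13 and the polymerase EXT1 by 0.19 ± 0.10 (SE). Between arrays numbered 1, 2 and 3 SDC4 differed by 0.02, 0.11 and 0.66.

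Among adaptors 10 of 11 were measured and 1 was at an unadjusted p under 0.05. GAB1, a docking protein downstream of FRS2, read 6.99, 6.85 and 6.53 on aligned and 7.18, 7.09 and 7.53 on random arrays. The groups did not overlap, as for 9.33% of all genes in this direction, and aligned 3 and random 3 were at the extremes. The difference was -0.48 ± 0.15 (SE, limma adjusted p = 0.463) and -0.35 without aligned 3. SHC1 differed by -0.11 ± 0.07 and SOS2 by 0.09 ± 0.08 (SE). In the Ras and kinase cascade 8 of 15 genes were measured, and PIK3R1, a regulatory subunit of PI3 kinase, was the 1 at an unadjusted p under 0.05. It read 8.50, 8.38 and 8.04 against 8.67, 8.61 and 8.81, a difference of -0.39 ± 0.13 (SE, limma adjusted p = 0.463). Its difference was -0.26 without aligned 3. The kinases MAPK3 and AKT2 differed by -0.08 ± 0.07 and -0.06 ± 0.07 (SE).

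Feedback inhibitors, all 10 measured, had a median difference of 0.20, with 8 higher and 2 lower. At an unadjusted p under 0.05 were 4, all higher: DUSP5, DUSP4, SPRY2 and SPRED2. With the replicate number as a block in limma there were 3, without SPRY2, beside 13.6% of all genes. DUSP5, a nuclear phosphatase of ERK, read 9.32, 9.45 and 10.15 on aligned and 8.88, 8.87 and 8.43 on random arrays, a difference of 0.92 ± 0.23 (SE, limma adjusted p = 0.463). The groups did not overlap, as for 8.71% of all genes in this direction, and the difference was 0.66 without aligned 3. DUSP4 read 7.98, 7.93 and 8.01 against 7.49, 7.55 and 6.99, a difference of 0.63 ± 0.15 (SE) and 0.61 without aligned 3. Its aligned arrays were nearly level and random 3 was low. SPRY2, which restrains Ras activation, differed by 0.36 ± 0.14 (SE), with 0.77 between the arrays numbered 3. SPRED2 differed by 0.20 ± 0.09 (SE). Leaving out aligned 2, aligned 3 or random 3 reduced the count of 4 to 2, and the median was 0.08 when random 3 was omitted. The share over all genes at that p fell as well, from 10.5% to 8.38%, 6.58% and 5.04%. Leaving out random 2 gave a count of 5, with 5.97% of all genes.

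Transcriptional targets, all 8 measured, had a median difference of 0.29, with 7 higher and 1 lower. At an unadjusted p under 0.05 were 5, with 4 higher and 1 lower. FOSL1, a partner of JUN in AP-1, read 10.06, 10.04 and 10.26 on aligned and 9.75, 9.56 and 9.25 on random arrays, a difference of 0.60 ± 0.14 (SE, limma adjusted p = 0.463). The groups did not overlap, and the difference was 0.53 without aligned 3. The ETS factors ETV5 and ETV4 differed by 0.46 ± 0.15 and 0.38 ± 0.13 (SE), and by 0.36 and 0.29 without aligned 3. ETV5 read 10.14, 10.13 and 10.45 against 9.95, 9.90 and 9.49, with random 3 lowest. The cyclin CCND1 differed by 0.84 ± 0.30 (SE), with 0.16, 0.47 and 1.89 between arrays numbered 1, 2 and 3. Under the block the targets at an unadjusted p under 0.05 were again 5, with FOS in place of CCND1. EGR1, an immediate early gene, differed by -0.53 ± 0.23 (SE) and by -0.28 without aligned 3. With quantile normalization repeated, or with the mean of a gene's measured sets, 0 targets were lower at an unadjusted p under 0.05. Of all genes 10.8% and 10.3% reached that p in these 2 settings. SPRED2, CCND1 and EGR1 were named after their values were seen. With aligned 3 omitted the targets' median was 0.32 and the count 3, and with random 3 omitted they were 0.19 and 4. In these fits 6.58% and 5.04% of all genes reached that p. In these lists 4 of 8 targets and 3 of 10 feedback inhibitors had every aligned above every random array, against 8.71% of all genes. Both lists were drawn up with earlier results of these data known, so the shares are a description and not a test.

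**Figure D4:**
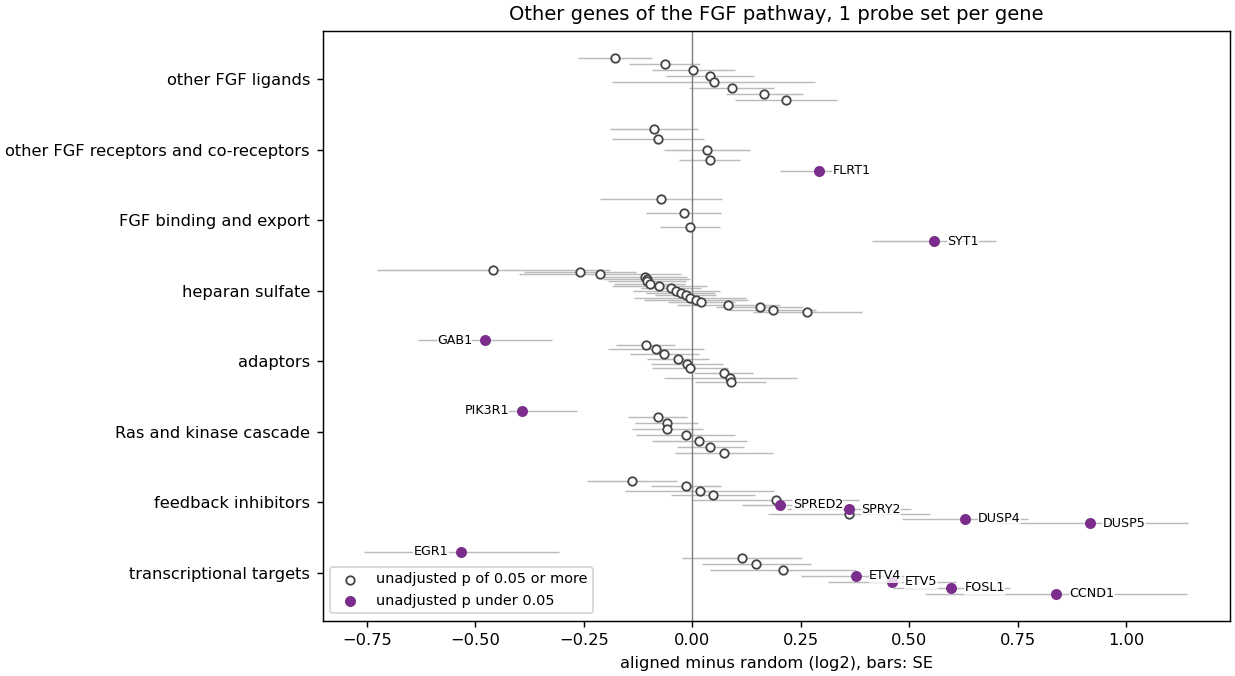
Difference between aligned and random fibers (log2, horizontal axis, bars for SE) of 72 other genes of the FGF pathway in 8 groups, with points filled where the unadjusted p in limma was under 0.05. The 13 filled points include 4 feedback inhibitors and 5 transcriptional targets, and 0 genes passed the adjusted threshold.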

How the data were processed

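Total RNA of 6 cultures was read on Affymetrix HG-U133 Plus 2 arrays, described in the labels as 3 independent cultures per substrate, with biotinylated cRNA made from 10 µg. The deposited table holds log2 signals that the authors obtained by RMA (named in the submitters' processing notes). Its version is not given in the sources used here. RMA can compress differences of dim probe sets, and detection calls were not used here.

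Of 54675 probe sets 62 controls were set aside. A set was kept when at least 3 of 6 arrays exceeded their median, leaving 27621. The platform annotation gave 41091 sets 1 symbol, 1801 several and 11721 none, and 41037 of the first matched RefSeq by gene identifier. Each gene was represented by its kept set with the highest mean (12381 genes). Differences and standard errors of the FGF and receptor sets come from a fit over 54613 sets, those of other genes from a fit over genes, both with limma 3.58.1 (lmFit, eBayes) under R 4.3.3, two-sided, without covariate and with Benjamini-Hochberg adjustment at 0.05. The code was tested on simulated data. Precision is limited by the number of arrays. The standard error of a gene's difference had a median of 0.10.

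The genes, pathway lists and tests were chosen with earlier results of these data known. Named pathway genes were the 3 of each list with the smallest p, and for FGF5, FGF2 and FGFR1 the 5 nearest profiles. Alternatives were other filters, normalizations, priors and probe-set rules, array weights, a replicate block and leaving out each array. Arrays of equal number deviated from their group means together, with correlations across genes of 0.369, 0.322 and 0.109. Each exceeds a limit of 0.1, so differences between arrays of equal number are given and a fit with the number as a block was added. The main fit did not use the numbers, and its standard errors, p values and counts are unpaired. The pairing rests on the values, as the labels do not say what a number shares, and aligned 2 with random 3 gave 0.188.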

Additional observations from a re-analysis of the deposited data

How the results depend on the processing

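The differences of the 6 genes kept their sign, and moved by less than 1 SD between replicates, under each alternative that gave a value. FGF1, FGF5 and FGFR3 had no set above the 75th percentile filter, and FGF2, FGFR3 and FGFRL1 had none without shared-sequence suffixes (_s_at, _x_at, _a_at). With the mean of all measured sets FGF2 was at 0.01 and FGFR1 at 0.16. Leaving out 1 array at a time gave 0.14 to 0.69 for FGF1, 0.02 to 0.21 for FGF2, 0.17 to 0.41 for FGFR1, -0.85 to -0.37 for FGFR3 and -0.46 to -0.27 for FGFRL1.

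Genes at an unadjusted p under 0.05 in limma, 1303 in all, numbered 851 with the 75th percentile filter, 4326 with array weights, 1858 without a filter and 624 to 2491 with 1 array left out. The 13 pathway genes became 8 with that filter, where 50 were tested, 27 with array weights and 8 to 17 with 1 array left out. Array weights also brought 2101 genes, 12 of them in the pathway, past the adjusted threshold in limma. The weights, 15.2 for aligned 2 and 0.245 for aligned 3, had not converged. With the replicate number as a block, 1687 genes and 14 pathway genes were at an unadjusted p under 0.05 in limma, and 0 passed the adjusted threshold. SPRY2 and CCND1 left the pathway genes at that p and SDC2, GPC4 and FOS joined them. Dim sets near or below the array median limit FGF1, FGFR3 and the third FGF5 set.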

Other observations

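The genes that follow were picked after their values were seen, and SDC2 was the 1 with an even difference between arrays of equal number. The proteoglycan SDC2, a carrier of heparan sulfate, differed by -0.23, -0.20 and -0.21 for the numbers 1, 2 and 3, although its groups overlapped, with a mean difference of -0.21 ± 0.19 (SE). The proteoglycan GPC4 differed by -0.19, -0.35 and -0.83. Among the feedback inhibitors DUSP6, a cytoplasmic phosphatase of ERK, differed by 0.21, -0.06 and 0.93, and SPRY4 by 0.14, -0.17 and 0.60. In DUSP6 random 3 read 8.24 and the other 5 arrays lay between 8.84 and 9.17. For GFAP, the astrocyte filament gene, the aligned arrays gave 5.22 ± 0.50 and the random arrays 6.03 ± 0.72 (SD, n = 3 per group).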
